A study of Mus musculus with 6 samples.

Results

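Cytosolic ribosomal protein genes were examined in neutrophils of the dura mater, the outer meningeal layer. They were taken by symbol as protein-coding genes named Rpl or Rps plus a number with an optional letter, with Rplp0 to Rplp2, Rpsa and Fau. S6 kinases, pseudogenes and like-named copies were left out, and at least 10 counts in 3 or more libraries were required. The rule found 77 genes among 21955 gene identifiers, 46 of the large and 31 of the small ribosomal subunit. All 77 passed the filter on low counts that left 11903 genes for testing. The study compared neutrophils by sex. There were 3 libraries labelled male and 3 labelled female, all of genotype WT, all taken after the mice had met a social threat, and none from unexposed mice. Neither age nor the number of mice behind a library is stated in the labels. The deposited values were raw counts per gene from bulk poly-A RNA, between 17098026 and 20778410 per library. Every difference below is for the libraries labelled female minus those labelled male.

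Ribosomal proteins coat the RNA core of the small subunit, which reads the message, and of the large subunit, which joins the amino acids. Many of their messages begin with a run of pyrimidines (a TOP tract, for terminal oligopyrimidine), through which growth signals acting by the kinase mTORC1 control their translation, and the factor Myc raises their transcription. Growing precursors in the bone marrow make ribosomes at a high rate, and production falls as granulocytes mature.

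The labels and libraries were checked before any comparison. Neutrophil markers (13 tested genes, S100a8 and Csf3r among those listed) summed to between 56883 and 80638 CPM (counts scaled to library size) in the 6 libraries. The 4 Y-linked genes Ddx3y, Eif2s3y, Kdm5d and Uty summed to 307 to 318 CPM in libraries labelled male and 312 to 328 CPM in those labelled female, so these genes go against the label female. The directions below are therefore between libraries so labelled, not between sexes. The third library labelled female stood apart from its group. Chi-square per degree of freedom, over genes above a minimum summed count in each pair, was 14.1 and 17.4 against its group mates. It was 5.33 between those and 4.19 to 8.42 among libraries labelled male. The statistic also rises with depth, and the third library labelled female was the deepest (20778410 counts). Counts of genes that passed are given with this library and, further on, without it.

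Promoter sequence was available for 57 of the 77 genes (RefSeq, mouse build GRCm38.p6, while the counts were made on GRCm39). A TOP-like tract was searched as a C followed by at least 4 bases that are C or T, with that C from 5 bases before to 10 bases after the annotated start. It was found in 33 of the 57 genes (57.9%) and in 27.7% of the 27025 genes of the table. The windows below run from 10 bases before the start to 20 bases from it, 5′ to 3′ on the gene's strand, with the tract in capitals. The first 5 belong to the genes that passed the test below and had an entry, and the last 4, chosen after the windows had been read, to other genes described below, which did not pass.
Rpl31 (chr1:39367841-39367870, plus strand): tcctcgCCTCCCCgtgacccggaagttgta
Rps7 (chr12:28635934-28635963, minus strand): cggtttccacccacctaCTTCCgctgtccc
Rpl19, upstream start (chr11:98026700-98026729, plus strand): aaacgCCCTCactgcgcatgtgcgccgcgg
Rpl19, downstream start (chr11:98026914-98026943, plus strand): tctccCCTTCgcagataatgggcggagcct
Rpl26 (chr11:68901556-68901585, plus strand): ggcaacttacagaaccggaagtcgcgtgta
Fau (chr19:6057937-6057966, plus strand): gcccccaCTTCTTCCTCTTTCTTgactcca
Rps6 (chr4:86857348-86857377, minus strand): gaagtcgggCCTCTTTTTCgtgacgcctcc
Rplp2 (chr7:141447641-141447670, plus strand): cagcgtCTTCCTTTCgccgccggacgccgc
Rpl7a (chr2:26910797-26910826, plus strand): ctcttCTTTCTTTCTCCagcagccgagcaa
No tract met the rule in Rpl26. Capitals begin no earlier than 5 bases before the start, where the search begins, so the run of pyrimidines extends further upstream than marked in the downstream window of Rpl19 and in Rpl7a. The median log2 change was -0.10 over the 33 genes with a tract, of which 3 passed the test, and -0.09 over the 24 without, of which 1 passed. Over all tested genes 6.62% fell. A pair of further motifs was searched over the whole 300 bases on both strands after the windows had been read. CCGGAAG, the core bound by ETS factors, was in 23 of 57 genes (40.4%) against 9.93% of all genes, and TATAAA in 6 of 57 (10.5%) against 15.7%. The median log2 change was -0.11 over the 23 genes with CCGGAAG and -0.09 over the 34 without. The 4 genes with an entry that passed the test held CCGGAAG. It was picked after windows of these same genes had been read, so this is a description only. Without the third library labelled female 15 of the 23 genes with it and 20 of the 34 without it fell (background 10.5%).

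The share of all counts taken by ribosomal protein messages overlapped between the groups, and 1 library was low. The share was 4.42%, 4.42% and 4.32% in the libraries labelled male and 3.97%, 4.35% and 4.36% in those labelled female. Means were 4.39% ± 0.062 and 4.22% ± 0.222 (SD, n = 3 each), an exact two-sided permutation p of 0.3, where 3 against 3 cannot go below 0.1. Counting error was small beside this, since the widest 95% Wilson interval reached 0.0097 percentage points to either side; it covers counting error only. Transcripts of mitochondrial genes, which share the same total, took 13.1%, 10.7% and 12.2% against 7.37%, 6.42% and 8.49%. With these left out of the total the ribosomal protein share was 5.09%, 4.95% and 4.91% against 4.28%, 4.65% and 4.76%. The groups then no longer overlapped (exact permutation p = 0.1).

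On the TMM scale (trimmed mean of M values, which scales each library by the bulk of its genes) the 77 genes summed to 45658, 43569 and 43952 CPM and to 38944, 41637 and 44887 CPM. The exact permutation p was 0.3. The genes moved together from library to library: in the first library labelled female all 77 lay below their own mean over the 6 libraries, in the second 64, and in the third only 6. In libraries labelled male 6, 24 and 20 did. The median deviation was 0.09, 0.03 and 0.03 on the log2 scale in libraries labelled male and -0.16, -0.05 and 0.07 in those labelled female. The third library labelled female thus sat with the libraries labelled male, and 1 library carried the lowest values.

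**Figure D1:**
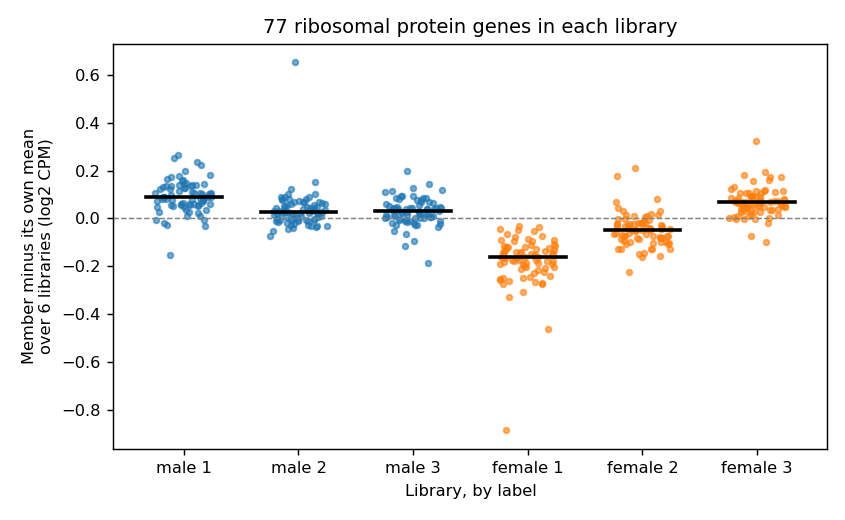
Each point is 1 of 77 genes in 1 library, as its log2 CPM minus its own mean over 6 libraries, and each black line is the median. All 77 points of female 1 lie below 0, and the median of female 3 (0.07) lies between those of male 1 (0.09) and male 2 (0.03).

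The balance of the subunits did not differ by more than the spread between libraries. Counts over large subunit genes divided by those over small subunit genes were 1.215, 1.208 and 1.213 in libraries labelled male and 1.218, 1.220 and 1.203 in those labelled female (exact permutation p = 0.8). The difference of means, 0.0017, changed sign when single libraries were left out, so no direction is drawn from it.

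Gene by gene, differences were small and mostly on 1 side. Of 77 genes, 7 fell in libraries labelled female and 0 rose (edgeR quasi-likelihood test, Benjamini-Hochberg adjusted p under 0.05 over 11903 genes). That is 9.09% of the genes, against a background of 6.62% of all tested genes that fell and 7.29% that rose. At an unadjusted p under 0.05, 21 were lower and 0 higher (27.3% and 0, against 13.3% and 14.3% of all tested genes), and DESeq2 and limma-voom also called 0 higher. The median log2 change was -0.09, against 0.0016 over all tested genes. Of the 77 genes, 69 had a change below 0 (89.6%), against 49.7% of all tested genes, but the genes move together and are not independent. Changes were under 1.2-fold in 75 genes (97.4%), against 76.2% of all tested genes. The libraries labelled female lay wholly below the others in 13 genes (16.9%, background 15.0%) and wholly above in 0 (background 15.9%), and in the other 64 the groups overlapped. The small subunit had a median of -0.10 with 3 genes that fell, and the large a median of -0.09 with 4. Because no label ties each library to a mouse of its own, the p-values here speak only of variation from library to library, possibly technical. In bulk RNA, fewer cells of a type and less RNA per cell cannot be told apart.

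**Figure D2:**
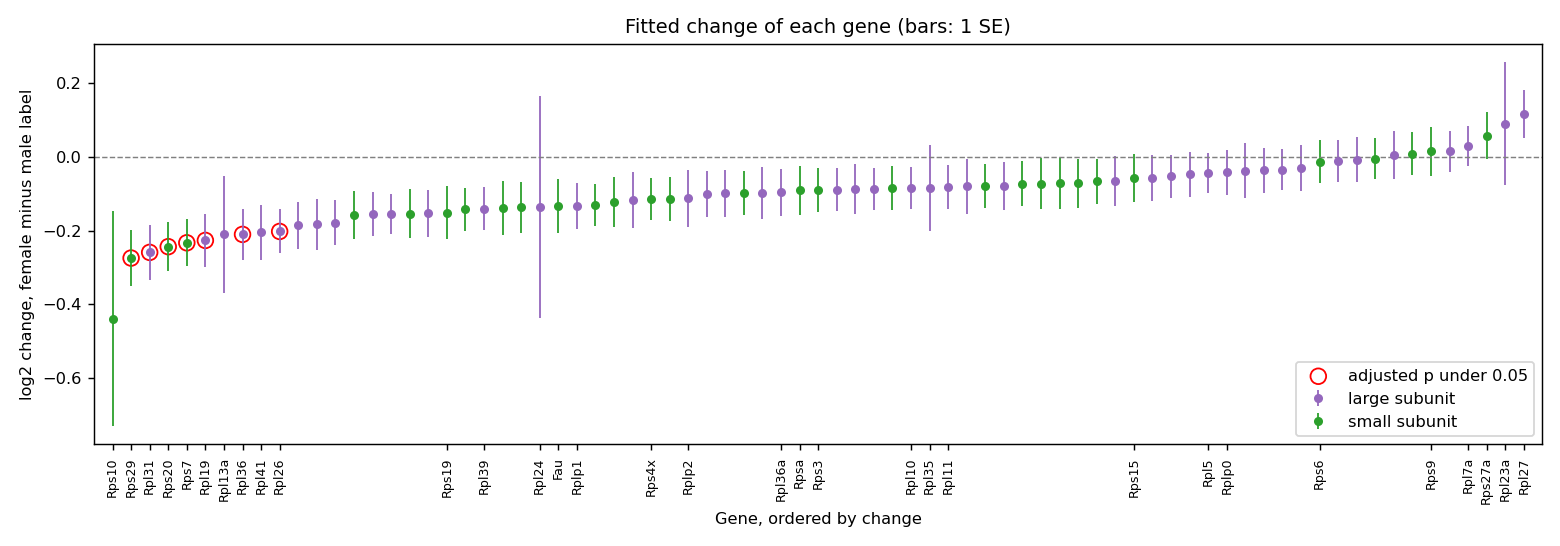
Fitted log2 change (libraries labelled female minus male) of each of 77 genes with bars of 1 standard error, coloured by subunit and ordered by change, with the genes described in the text named on the axis; red circles mark adjusted p under 0.05. Most genes lie between -0.20 and 0, the 7 circled genes lie from -0.27 to -0.20, and the genes with the widest bars, Rpl24 and Rps10, have few counts.

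In the small subunit the genes that fell were Rps29, Rps20 and Rps7. Rps29 (chromosome 12), a zinc-binding protein of the subunit's head, was at 281, 267 and 247 CPM in libraries labelled male and at 191, 220 and 246 CPM in those labelled female. Its highest value under the label female lay just under the lowest under the label male, and the log2 change was -0.27 (SE 0.075, edgeR adjusted p = 0.0184). Rps20 (chromosome 4), also of the head, was at 484, 456 and 480 CPM against 363, 392 and 445 CPM. These groups did not overlap either (log2 change -0.24, SE 0.067, edgeR adjusted p = 0.0184). Rps7 (chromosome 12), of the subunit's body, was at 663, 611 and 634 CPM against 492, 544 and 587 CPM. The libraries labelled female were again all below, by a log2 change of -0.23 (SE 0.064, edgeR adjusted p = 0.0188).

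The small subunit genes with roles of their own did not pass. Rps6, the substrate of S6 kinase, was at 1233, 1193 and 1203 CPM against 1135, 1214 and 1249 CPM, overlapping groups with a log2 change of -0.01 (SE 0.058). Rps3, which lines the channel where the message enters, had a log2 change of -0.09, as did Rpsa, which doubles as a laminin receptor. Rps19, the gene most often mutated in Diamond-Blackfan anaemia, was at 463, 449 and 415 CPM against 361, 383 and 451 CPM (log2 change -0.15, edgeR adjusted p = 0.176). Its groups overlapped through the third library labelled female. Rps15 and Rps9 had log2 changes of -0.06 and 0.02. Of the genes whose protein is fused to ubiquitin or a ubiquitin-like domain, Rps27a was at 735, 748 and 722 CPM against 712, 738 and 845 CPM, with only the third library labelled female above the rest (log2 change 0.06). Fau was at 528, 487 and 490 CPM against 403, 452 and 517 CPM (log2 change -0.13, edgeR adjusted p = 0.248).

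In the large subunit Rpl31, Rpl19, Rpl36 and Rpl26 fell. Rpl31 (chromosome 1), a protein at the exit of the peptide tunnel, was at 676, 601 and 612 CPM in libraries labelled male and at 482, 491 and 605 CPM in those labelled female. The groups overlapped through the third library labelled female (log2 change -0.26, SE 0.075, edgeR adjusted p = 0.0248). Rpl26 (chromosome 11), also at the tunnel exit, was at 716, 670 and 669 CPM against 566, 584 and 636 CPM. These values did not overlap, and the log2 change was -0.20 (SE 0.060, edgeR adjusted p = 0.0271). Rpl19 (chromosome 11), which contacts the small subunit, was at 158, 142 and 131 CPM against 113, 123 and 132 CPM. Here the groups just overlapped (log2 change -0.23, SE 0.072, edgeR adjusted p = 0.0409). Rpl36 (chromosome 17) was at 197, 192 and 195 CPM against 153, 162 and 190 CPM, a narrow range against a wide one just below it (log2 change -0.21, SE 0.069, edgeR adjusted p = 0.0479). The gene nearest the threshold on the other side, Rpl32, had an edgeR adjusted p of 0.0544.

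**Figure D3:**
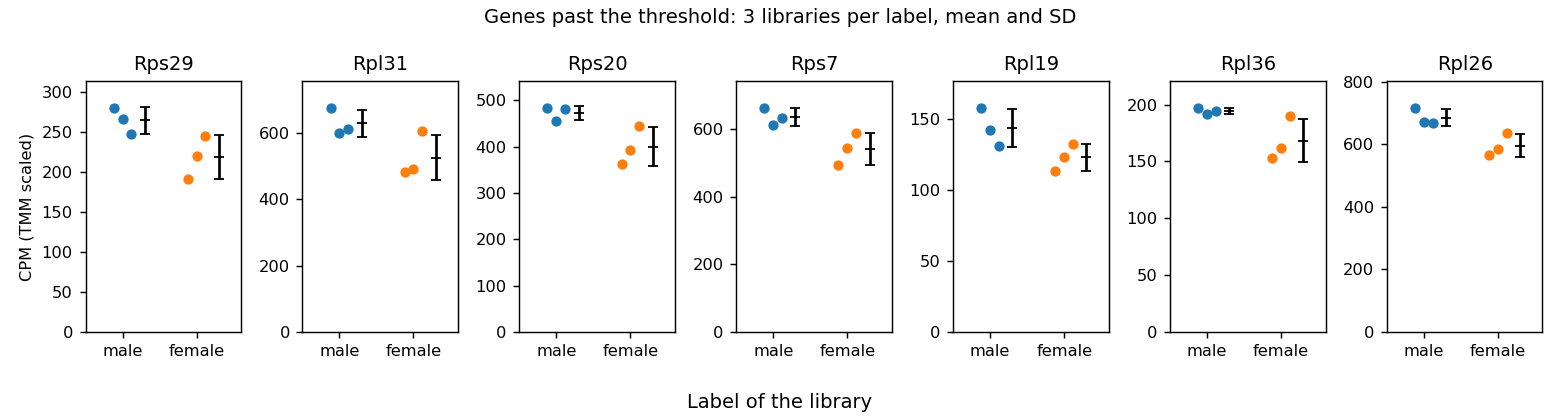
CPM (TMM scaled, axes from 0) of the 7 genes with adjusted p under 0.05 in each library, with the mean and SD (n = 3) to the right of each label's points; points run from replicate 1 to 3. In 5 of the 7 genes the labels do not overlap, and female 3 is the highest library labelled female in every panel.

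Other large subunit genes of known role did not pass. Rpl41, which encodes the shortest ribosomal protein and had the highest level per length, was at 1044, 940 and 960 CPM against 757, 825 and 973 CPM (log2 change -0.20, edgeR adjusted p = 0.0743). The third library labelled female lay above 2 of the 3 libraries labelled male. The stalk that recruits elongation factors is built on Rplp0 by Rplp1 and Rplp2, which had log2 changes of -0.04, -0.13 and -0.11. Rpl5 and Rpl11, which bind 5S ribosomal RNA and, when free, the p53 regulator Mdm2, had log2 changes of -0.04 and -0.08. On the other side of 0, Rpl27 was at 264, 303 and 281 CPM against 283, 308 and 328 CPM, the largest change above 0 (0.12, SE 0.065, edgeR adjusted p = 0.258). Rpl7a followed among well-counted large subunit genes with 0.03.

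The 4 X-linked genes were all a little below 0. Rps4x was at 1330, 1285 and 1283 CPM against 1157, 1187 and 1257 CPM, and Rpl39, of the tunnel wall, at 235, 235 and 226 CPM against 197, 215 and 218 CPM. In both the groups did not overlap, but neither passed (log2 changes -0.11 and -0.14, edgeR adjusted p = 0.204 and 0.121). Rpl10, a late-joining protein near the catalytic centre, and Rpl36a had log2 changes of -0.08 and -0.10 with overlapping groups.

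Which genes passed depended on single libraries. Without the first library labelled female 0 genes fell (background 4.72%) and the median log2 change was -0.04. Without the first labelled male 0 fell too (background 4.33%, median -0.07). Without the third labelled female 45 fell (background 10.5%, median -0.15), the 7 above among them. These were 25 of 46 large and 20 of 31 small subunit genes, and 20 of the 33 genes with a TOP-like tract and 15 of the 24 without. Genes that fell in that fit included Rpl41 (log2 change -0.31), Fau (-0.23), Rplp2 (-0.23), Rps19 (-0.25), Rpsa (-0.16) and the X-linked Rps4x, Rpl39 and Rpl36a (-0.15, -0.17 and -0.14). Without the second labelled male Rpl31, Rps20 and Rps7 fell (3 genes, background 4.12%, median -0.11), without the third Rps29 and Rpl19 (2 genes, background 3.87%, median -0.10), and without the second labelled female Rps29 and Rps7 (2 genes, background 4.32%, median -0.08). In these 3 fits some calls were lost although changes stayed about as large: Rps29 had a log2 change of -0.27 without the second library labelled male, and Rps20 of -0.23 without the third. Others were lost with smaller changes: without the second library labelled female Rpl31 had a log2 change of -0.21 and Rpl36 of -0.18. None of the 77 genes rose in any of the 6 fits.

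Markers of other cells and of neutrophil stages also differed between the labels. The background over all tested genes was 6.62% lower and 7.29% higher. B cell markers summed to 308, 378 and 342 CPM in libraries labelled male and 193, 262 and 245 CPM in those labelled female, and 7 of the 12 tested fell. Dendritic cell markers summed to 545 to 566 CPM against 376 to 392 CPM, with 7 of 11 lower. Macrophage and monocyte markers, the most abundant of these sets, summed to 2228 to 2291 CPM against 2444 to 2498 CPM, with Ccr2 and Adgre1 higher and Cd68 lower of 11. Stromal markers summed to 81.4 to 88.6 CPM against 67.6 to 78.1 CPM, with Acta2 higher and Igfbp5 lower of 7. Markers of T and NK cells overlapped (172 to 199 CPM against 162 to 191 CPM), with Cd4 lower of 10. Erythroid markers, haemoglobin genes among them, summed to 25.1, 20.3 and 19.8 CPM against 66.4, 57.8 and 36.6 CPM, with 4 of 7 higher. The library with the lowest ribosomal protein sum had the lowest B cell and the highest erythroid sum. The library with the highest ribosomal protein sum, the first labelled male, also had the lowest B cell and the highest erythroid sum of its group. Of the 13 neutrophil markers 8 rose and 1 fell. The list held 14 genes, of which 13 were in the data and tested. Of the other listed markers, Cxcr2, Elane, Ltf, Camp and Ngp, those tested did not pass. Retnlg, a marker of mature neutrophils, was at 788, 743 and 871 CPM against 1814, 1753 and 2143 CPM (log2 change 1.25), and Mmp8, of the specific granules, had a log2 change of 0.96. Mpo, made by early precursors, was at 1900, 1879 and 1828 CPM against 1491, 1628 and 1738 CPM (log2 change -0.21, edgeR adjusted p = 0.0315). Its order of libraries was that of the ribosomal protein sum under the label female but not under the label male. Retnlg, too, was highest in the third library labelled female. Without the third library labelled female 9 B cell, 7 dendritic cell and 1 macrophage and monocyte markers fell. So did 1 T and NK cell, 1 stromal and 1 neutrophil marker, the last being Mpo. In the same fit 6 erythroid, 3 macrophage and monocyte, 7 neutrophil and 1 stromal markers rose. The background was then 10.5% lower and 11.9% higher. None of the listed markers with an identifier in the data was at 0 in all libraries. The part of other cells, of neutrophil maturity and of the mitochondrial share in the ribosomal protein differences was not tested.

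Levels per length varied among the genes far more than between the labels. Divided by transcript length, the mean level had a median of 703 CPM per kilobase. The highest were Rpl41 (2097), Rps9 (1471), Rps15 (1462), Rps6 (1372) and Rps4x (1282 CPM per kilobase). At the other end lay Rpl24 (2.70), Rps10 (5.98), Rpl13a (8.62), Rpl23a (11.8) and Rpl35 (18.8 CPM per kilobase), and the next, Rps20, was at 118. The value of Rps20 came from 437 CPM over a long transcript model, of 3706 bases for a coding length of 357. All 77 products are parts of the same particle, which holds them in equal numbers apart from the stalk. In those 5 genes, 55.4% to 91.6% of the transcript's bases lie in exons of another annotated gene. Rps10 overlaps the readthrough gene RPS10-NUDT3, Rpl24 overlaps Gm28037, Rpl23a overlaps Tlcd1, Rpl35 overlaps Arpc5l and Wdr38, and Rpl13a overlaps Gm45713. No other gene exceeded 46.6% (Rpl5), and 65 of the 77 had no overlap. How the counting treated reads in 2 genes is not given, and its part in these low levels was not tested. Their own changes were imprecise, from -0.44 (SE 0.29) in Rps10 to 0.09 (SE 0.17) in Rpl23a, and without these 5 the median log2 change was still -0.09 with 7 genes that fell. The overlap was examined after the low levels had been seen.

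**Figure D4:**
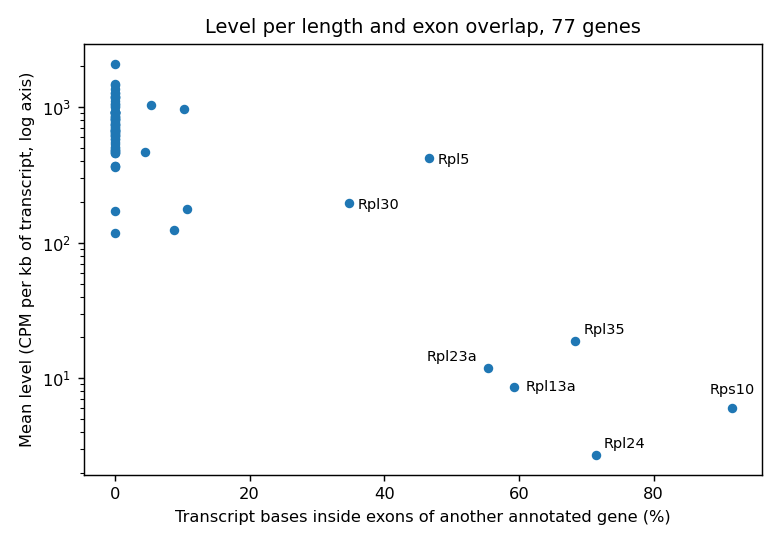
Mean level over 6 libraries (CPM per kilobase of transcript, log axis) of 77 genes against the percentage of transcript bases inside exons of another annotated gene. The 5 genes under 20 CPM per kilobase are the 5 with overlap above 50%.

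Sequence shared with other genes was common: 72 of the 77 transcripts had stretches of 100 bases found in transcripts of other genes, pseudogenes included, and in 36 more of the stretches were shared than were not. The other 5 had none, Rps3 among them. Counts of the rest are uncertain to the extent that reads were split between copies. Across the genes the level per length had a Spearman correlation of -0.10 with the shared percentage and of -0.46 with exon overlap, given as descriptions, since the genes share libraries.

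Shorter genes had the lower changes. Across the 77 genes coding length and log2 change had a Spearman correlation of 0.40 (Pearson 0.29), a description of genes measured in the same libraries and noticed after the values had been seen. It ran from 0.28 without the first library labelled female to 0.51 without the third. Over 5323 other tested genes with a coding length no longer than the longest of the 77 (1257 bases) the correlation was -0.02. Over all 11774 other tested genes with a coding length it was -0.08. The 37 genes with coding sequences under the median of 453 bases had a median log2 change of -0.12 with 5 that fell, and the other 40 a median of -0.08 with 2. Over all tested genes 6.62% fell. Without the third library labelled female 31 of the 37 and 14 of the 40 fell (background 10.5%). Without the first labelled female, or without the first labelled male, 0 of the 77 fell. The CPM sum of the shorter genes divided by that of the longer was 0.635, 0.621 and 0.630 in libraries labelled male and 0.583, 0.594 and 0.619 in those labelled female. The groups did not overlap, with the third library labelled female close to the others.

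**Figure D5:**
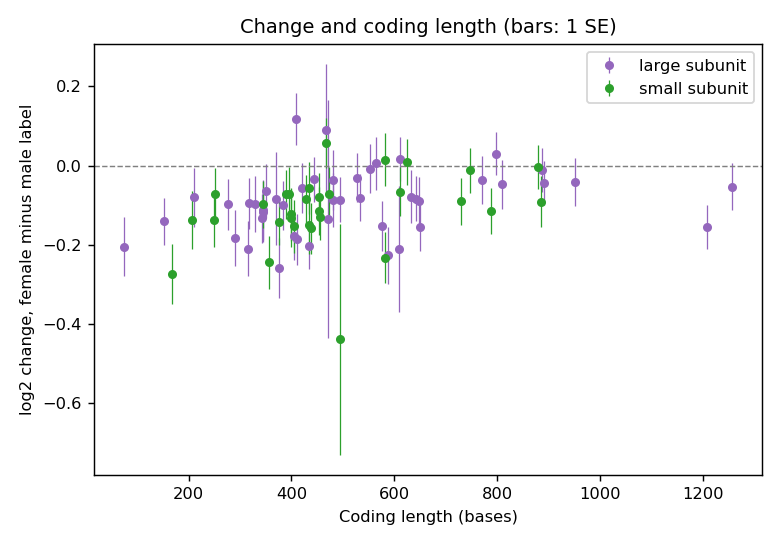
Fitted log2 change (libraries labelled female minus male, bars of 1 standard error) against coding length in bases for 77 genes, coloured by subunit. Genes under 453 bases lie mostly below -0.05, and those near 0 are mostly longer, with Rpl27 (0.12) as an exception.

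The ribosomal components named here from outside the symbol rule did not pass. Rps3a1, a small subunit gene whose symbol the rule does not take, was at 1612, 1600 and 1655 CPM against 1483, 1612 and 1699 CPM (log2 change -0.02). Rack1, a scaffold on the small subunit's head, had a log2 change of -0.06. Of 7 tested like-named copies 0 passed. Rpl7l1, which acts in assembly rather than in the finished ribosome, was at 75.1, 69.8 and 72.3 CPM against 80.8, 80.5 and 80.5 CPM, all above (log2 change 0.16, edgeR adjusted p = 0.103). Rpl10l, the copy used in male germ cells, had 0 counts in all 6 libraries.

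Genes that make, control or use ribosomes passed in small numbers, in both directions. Over all tested genes 6.62% fell and 7.29% rose. Among 25 other messages known to be controlled like ribosomal proteins 2 fell and 0 rose: Vim, an intermediate filament gene (log2 change -0.26), and the initiation factor gene Eif3f (-0.19). The most abundant, Eef1a1, was at 5963 ± 76.7 CPM against 5992 ± 291 CPM (SD, n = 3 each). Among 13 tested genes of RNA polymerase I and its factors 1 fell, Taf1d (-0.20), and 0 rose. Among 69 genes of ribosome processing and assembly 1 fell, Nop56, a core protein of the particles that methylate ribosomal RNA. It was at 169, 162 and 165 CPM against 123, 130 and 147 CPM (log2 change -0.31, SE 0.066, edgeR adjusted p = 0.00314). In the same list 3 rose: Nop16 (0.33), Rrs1 (0.32), which helps to install the 5S particle, and Utp14a (0.23), and the list's median was 0.06. Among 35 translation factors 1 rose, Abce1, which splits ribosomes after termination (0.25), and 0 fell.

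The list on mTORC1 and Myc held the largest change of the 8 lists. Of 30 genes 5 rose and 1 fell (background 7.29% and 6.62%), with a median of -0.01. Mxd1, which encodes a partner of Max that represses targets of Myc, was at 387, 371 and 419 CPM in libraries labelled male and 658, 609 and 746 CPM in those labelled female. The groups lay far apart (log2 change 0.77, SE 0.070, edgeR adjusted p = 1.25e-07). Max, the shared partner of Myc and Mxd1, was at 189, 183 and 189 CPM against 236, 237 and 262 CPM (log2 change 0.39, SE 0.059, edgeR adjusted p = 0.000115). In both genes the third library labelled female was the highest of all 6. Mxi1, another Max partner, rose by 0.19, Larp4, a binder of poly-A tails, by 0.30 and Eif4ebp2, an inhibitor of initiation that mTORC1 inactivates, by 0.26. Rps6kb2, an S6 kinase gene, fell (log2 change -0.27). Among 24 tested genes of ribosome rescue and dormancy Gtpbp2 fell (-0.21) and Serbp1, whose protein occupies idle ribosomes, rose (0.18). Among 18 chaperone and importer genes 2 rose, the importin genes Ipo5 and Tnpo1 (both 0.23), and 0 fell. Without the third library labelled female (background 10.5% lower and 11.9% higher) 5 fell and 3 rose among other TOP messages, 1 and 1 for RNA polymerase I, 5 and 15 for processing and assembly, 3 and 11 for translation factors, 3 and 6 for mTORC1 and Myc, 5 and 3 for rescue and dormancy, and 0 and 5 for chaperones and importers. Of the genes of these lists named above as having passed, Mxi1 alone did not pass then (log2 change 0.15, edgeR adjusted p = 0.0606). Differences between these lists and the ribosomal protein genes were not tested.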

How the data were processed

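Bulk poly-A RNA was sequenced from 6 libraries on an Illumina NovaSeq, per the labels' protocols, which name no step that marks strand. HISAT2 2.0.5, cutadapt 1.15 and mouse build GRCm39 are named in the submitters' processing notes; the counting tool is not known from them. Values are raw counts as the authors deposited them, without normalization. Symbols, chromosomes, transcript lengths and exon overlap came from GENCODE M21 (build GRCm38), which named 21847 of 21955 identifiers; no coordinates were carried between builds. Transcript length was that of the shortest transcript of the best APPRIS rank, chosen after odd lengths of longer models had been seen.

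Libraries were grouped by the sex in their labels. Counts were fitted over all genes with edgeR 4.0.16 in R 4.3.3 (TMM, minimum count 10, quasi-likelihood test, Benjamini-Hochberg threshold 0.05), after the code had been tested on simulated data. DESeq2 1.42.0, limma-voom (limma 3.58.1), other scalings and filters, a block and fits without each library were alternatives. Single values per library were compared by exact permutation. The 77 genes and all lists were chosen with earlier results of these data known. Named genes were those that passed, the 4 largest changes each way, the 5 highest and lowest per length, X-linked genes, genes of special role and, in other lists, those that passed. Depth, 17098026 to 20778410 counts, leaves spread between libraries as the main error. Motifs, overlap, coding length and shared stretches were examined after values had been seen and carry no test. A few items are not reported here.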

Additional observations from a re-analysis of the deposited data

How the results depend on the processing

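The count of ribosomal protein genes that fell was 7 in the reported fit. It was 7 to 10 with DESeq2 size factors, upper-quartile factors, DESeq2, limma-voom, both other filters, mitochondrial genes left out, or ribosomal protein genes left out of the scaling. It was 11 without a filter on low counts. With 1 library left out it ran from 0 to 45. The 7 genes kept their calls in every setting that used all 6 libraries, and in no setting did a gene of the 77 rise. The replicate numbers did not pair the libraries: deviations of same-numbered libraries correlated at -0.04, 0.06 and 0.06. With the number as a replicate block 11 genes fell, and the share of counts differed by -0.164 percentage points with or without it. The median log2 change stayed below 0 in every setting, from -0.15 to -0.04 with 1 library left out. The share differed by -0.423 percentage points without mitochondrial genes and by -0.036 without the first library labelled female. The large over small ratio differed by 0.0017, by -0.0087 without the 5 genes with most counts, and by -0.0012 to 0.0070 with 1 library left out. Of 508 alternatives for named genes 461 kept direction and call, 28 lost the call, 12 gained one and 7 changed sign. The sign changed without the first library labelled female in Rpl35 (0.035), Rplp0 (0.0055, lowest -0.085 without another library), Rps15 (0.0047, lowest -0.13) and Rps6 (0.027, lowest -0.042). It also changed without the first labelled male in Rps6 (0.0021), and without the third labelled female in Rps27a (-0.019, highest 0.11 without another library) and Rps9 (-0.072, highest 0.075). The cause was not tested. Low counts limit precision most in Rpl24 and Rps10, with standard errors of 0.30 and 0.29. Counts by subunit, tract, motif, length and list without the third library labelled female were added after seeing the data.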
